A study of Homo sapiens with 10 samples.

Results

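Ribosome-fused and free APOBEC1 were compared in HEK293T, a line from human embryonic kidney with the SV40 large T antigen, in 6 of the 10 libraries of the series. In the 3 Ribo-STAMP libraries the cells carried an inducible fusion of the cytidine deaminase APOBEC1 with RPS2, a small-subunit ribosomal protein. In the 3 APOBEC1-only libraries they carried the inducible deaminase with no fusion partner. Both constructs were induced with doxycycline at 1 ug/mL for 72 h, and polyadenylated RNA was read as full-length cDNA on a PacBio instrument. The libraries were chosen by the cell line and construct in their labels, and no measured value entered the choice. The labels do not say that the replicates came from separate cultures, so a p-value here measures the spread between these libraries, which may be technical.

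APOBEC1 removes the amino group of cytidine in single-stranded RNA, and the resulting uridine is read as thymidine after reverse transcription. Fused to a ribosomal protein, the enzyme travels with the ribosome, and the edits it leaves along a coding sequence record contact between that mRNA and ribosomes. Free APOBEC1 edits RNA without that guide and is the usual measure of the editor's own preference for particular RNAs. In HEK293T cells, the mRNAs of ribosomal proteins carry a terminal oligopyrimidine tract at their start and are among the most abundant messages.

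Each deposited file lists coding-sequence positions with at least 1 edited read, the annotated isoform, the number of edited reads and the number of reads that covered the position. The 6 libraries together listed 7004 genes and 8885 transcripts. The reads on listed isoforms were 81592 to 110526 in the APOBEC1-only libraries and 157544 to 203094 in the Ribo-STAMP libraries, and the relative depth over the isoforms that all 6 shared was 0.819 to 1.07 and 0.945 to 1.15. No position was listed in all 6 libraries, and 54 were in 5. As a check of the line, 4 of 7 HEK293T markers were listed, with the neurofilament NEFM, the creatine kinase CKB and the cadherin CDH2 in all 3 Ribo-STAMP libraries, HOXA9 in 2 of them, and NEFL, GATA3 and PAX2 at 0 edited reads. Of 7 markers of MDA-MB-231, the other line of the series, MSN was listed in 3 Ribo-STAMP libraries and CAV1 in 1, and the other 5 were at 0 edited reads in all 6. A gene absent from a file had no edited read listed, which is not a measure of its expression. The files give no level of either construct's protein, so more editor per cell and closer contact of the editor with mRNA cannot be told apart.

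Edits were many times more frequent with the ribosome-fused editor. At matched depth the APOBEC1-only libraries had 3272, 3172 and 3627 edited reads and the Ribo-STAMP libraries 57100, 53893 and 56481. The groups did not overlap, and the means were 3357 ± 239 (SD, n = 3) and 55824 ± 1701 (SD, n = 3), a ratio of 16.6. The size of this ratio depends on the listing: it was 19.8 with positions covered by at least 20 reads and 70.2 with positions that had at least 2 edited reads. The number of genes with any edit was 1687 ± 156 (SD, n = 3) with free APOBEC1 and 4752 ± 272 (SD, n = 3) with the fusion. The exact permutation test, two-sided, gave p = 0.1 for each of these totals, the smallest value that 3 against 3 libraries allow.

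To compare single genes, 837 genes were taken whose isoforms were listed in all 3 Ribo-STAMP libraries with a mean coverage of at least 50 reads. The level of a gene is its edited reads, summed over positions, per 100 covering reads, which can exceed 100 when a read carries several edits. Over these genes together it was 1.60, 1.57 and 1.68 in the APOBEC1-only libraries and 34.7, 34.1 and 36.1 in the Ribo-STAMP libraries. In 822 of the 837 genes every Ribo-STAMP library lay above every APOBEC1-only library, although membership required edits in Ribo-STAMP and so favours that direction. The ratio of the fusion level to the free-APOBEC1 level had a median over genes of 17.5, and 10th and 90th percentiles of 6.40 and 48.9. These ratios pool the 3 libraries of a group and add 0.5 to its edited reads. A single gene had a ratio under 2, the chaperone DNAJB1 at 1.51, and 26 genes had one over 100. Free APOBEC1 left few marks behind each of these ratios: the median gene had 4 edited reads over the 3 APOBEC1-only libraries, 706 genes had fewer than 10, and 69 had none.

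**Figure D1:**
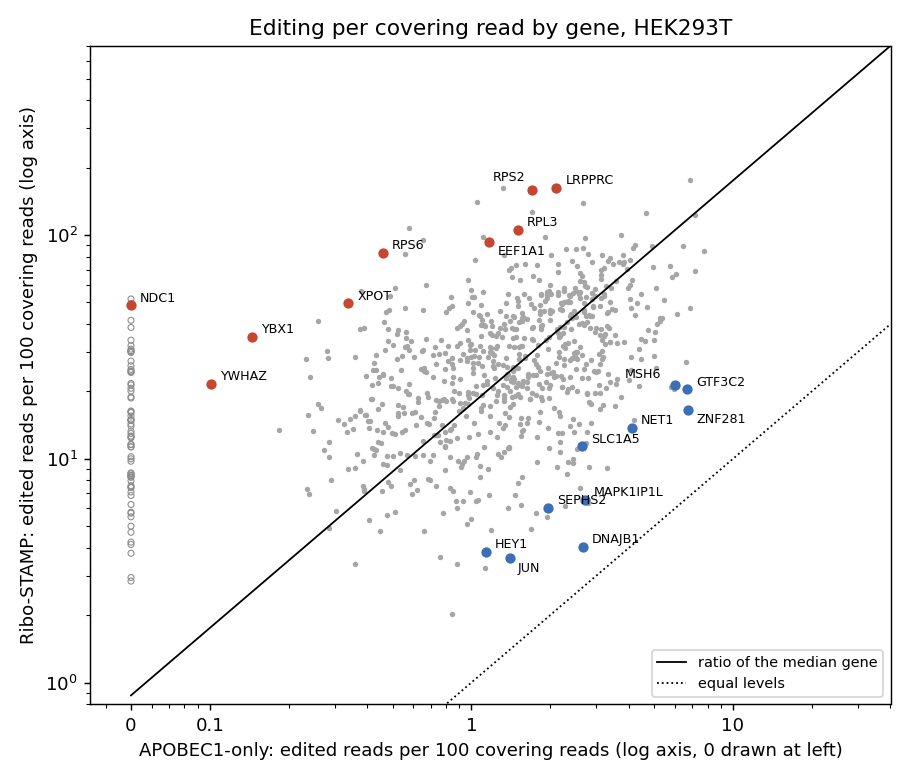
Edited reads per 100 covering reads of each of 837 genes, with the pooled APOBEC1-only level on the x axis and the pooled Ribo-STAMP level on the y axis, both logarithmic. Open circles are the 69 genes with no edit in APOBEC1-only, the solid line is the ratio of the median gene (17.5) and the dotted line equal levels; red and blue points are 9 of the 10 genes with the smallest p above the solid line and the 10 below it, and every gene lies above the dotted line.

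The question for each gene was whether its ratio differed from that of the median gene. A negative-binomial quasi-likelihood model of edited reads given coverage, with Benjamini-Hochberg adjustment over the 837 genes, called 1 gene higher (0.119%) and 0 lower (0%) at an adjusted p under 0.05. At an unadjusted p under 0.05 it gave 75 genes above the median ratio (8.96%) and 47 below (5.62%). limma on log2 ratios called 7 higher (0.836%) and 12 lower (1.43%), and the quasi-Poisson model, which was run first, called 0 and 0, with 39 (4.66%) and 37 (4.42%) at an unadjusted p under 0.05. After centring each library on its median gene, the 2 groups did not overlap in 207 genes (24.7%), 110 above and 97 below. The named genes that follow are therefore given as measured levels, and a call is stated only where the test passed.

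The called gene was EEF1A1, the elongation factor that brings aminoacyl-tRNA to the ribosome and one of the best-known mRNAs with a terminal oligopyrimidine tract. Its level was 1.11, 0.957 and 1.39 edited reads per 100 covering reads in the APOBEC1-only libraries and 86.9, 75 and 100.4 in the Ribo-STAMP libraries. The pooled ratio was 78.4, which is 2.16 above the median gene on the log2 scale (adjusted p = 0.0366, negative-binomial model). The groups were far apart in every library, but the call was lost when any 1 of the 6 libraries was left out (adjusted p from 0.0744 to 0.442) and with the replicate number as a block (adjusted p = 0.751), the largest value over the alternatives, of which the smallest was 0.0022, among genes with a mean coverage of at least 100. Its coverage was 903, 836 and 1083 reads in the APOBEC1-only libraries and 259, 476 and 1388 in the Ribo-STAMP libraries. EEF1A1, like the ribosomal protein genes, has many near-identical processed copies in the genome, so reads could have been assigned to or from them.

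The 7 covered ribosomal protein mRNAs, of 79 in the 2 lists, had ratios above that of the median gene, and none passed the adjusted negative-binomial test. RPS2, whose coding sequence is also part of the fusion construct, had 1.04, 1.37 and 2.00 edited reads per 100 covering reads with free APOBEC1 and 162, 127 and 169 with the fusion. That ratio of 87.5 was 2.32 above the median gene on the log2 scale (adjusted p = 0.106 in the negative-binomial model and 0.0270 in limma). Reads of the construct's own mRNA and of the endogenous gene cannot be told apart in these files, so the RPS2 level mixes them to an unknown extent. Per kilobase of coding sequence, RPS2 in Ribo-STAMP had 180 edited reads per 100 covering reads, and the median of the genes with a known coding length was 15.9.

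RPS6, a small-subunit protein phosphorylated downstream of mTOR, had 0, 0 and 0.905 edited reads per 100 covering reads in the APOBEC1-only libraries and 86.2, 45.0 and 101 in the Ribo-STAMP libraries. RACK1, the scaffold protein on the head of the small subunit, had 0, 0 and 0.877 against 35.7, 48.5 and 64.9. Neither carries the sequence of the construct, and both lay above the median ratio, by 3.06 and 2.51 on the log2 scale. These values rest on very few free-editor reads, all of them in APOBEC1-only replicate 3. The 3 covered small-subunit genes, RPS2 included, together had 11 edited reads over the APOBEC1-only libraries. In limma RPS6 was called higher (adjusted p = 0.0382), while the negative-binomial model gave adjusted p = 0.133 for RPS6 and 0.229 for RACK1.

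The covered large-subunit proteins were RPL3, RPL4, RPL5 and RPL15. RPL3 had 2.23, 0 and 2.05 edited reads per 100 covering reads with free APOBEC1 and 85.7, 50.6 and 119 with the fusion, and RPL4 had 1.42, 0 and 1.44 against 39.3, 47.0 and 93.5. RPL5, which carries 5S ribosomal RNA into the subunit, had 17.6, 40 and 284 in the Ribo-STAMP libraries, and its place relative to the median gene was 2.69 on the log2 scale with replicate 3 and 0.23 without it. All 7 covered ribosomal protein genes, 3 of 33 listed for the small and 4 of 46 for the large subunit, lay above the median ratio, with list medians of 2.51 and 1.98 on the log2 scale against 0 over all 837 genes. At an unadjusted p under 0.05, 3 of 3 and 3 of 4 were higher, beside 8.96% of all genes. Entry required listed edits in all 3 Ribo-STAMP libraries, so members without them could not count. These shares therefore favour the high side and do not describe the whole family. Summed over its covered members, the large-subunit level was 37.0, 37.2 and 108 in the Ribo-STAMP libraries, so replicate 3 stood far above the other two. Counted as edited reads without dividing by coverage, the list medians were 0.58 and 0.59 over 3 tested genes each, and as edited positions 0.32 and 0.10 over 3 and 2, with no gene called by limma. The libraries listed 28 of the small-subunit and 43 of the large-subunit genes, and most of them did not reach the coverage minimum or were not listed in every Ribo-STAMP library, so the 7 are a minority of these lists.

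**Figure D2:**
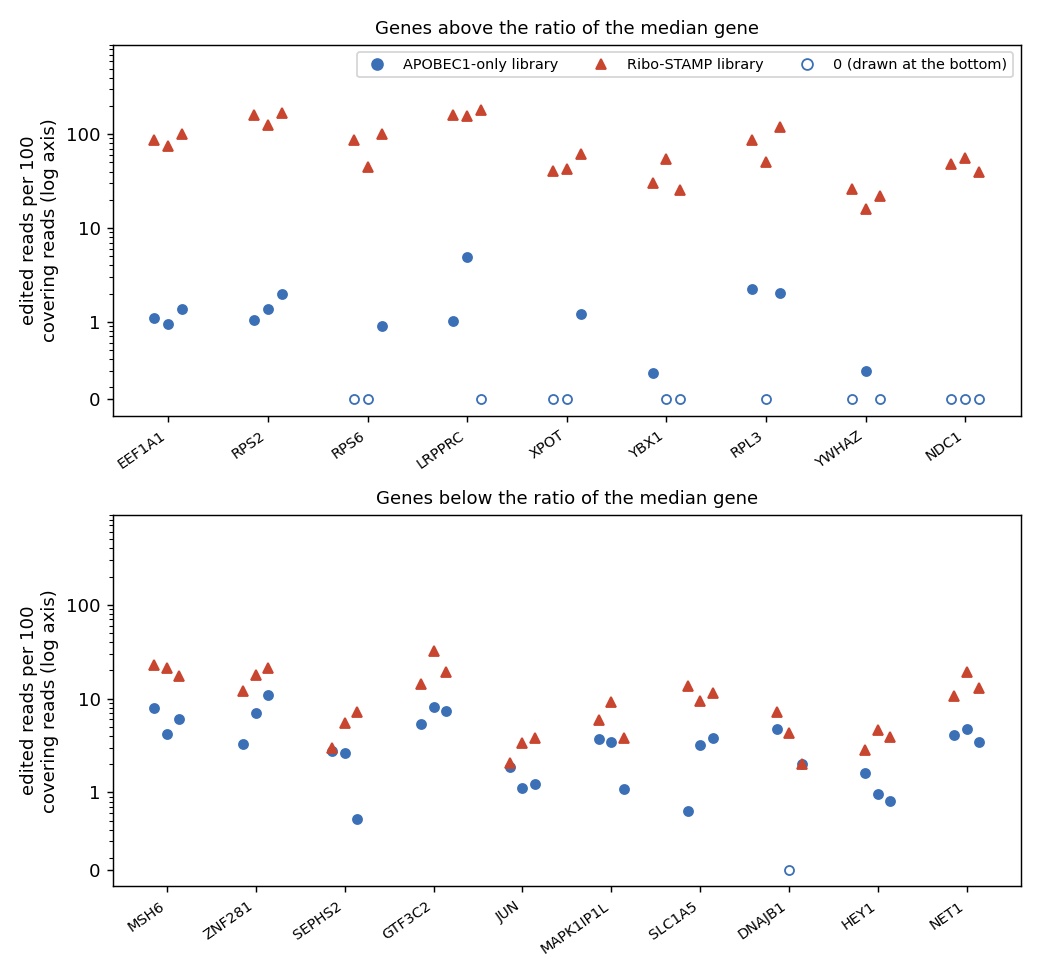
Edited reads per 100 covering reads in each library (log axis, open circles for 0) of 9 of the 10 genes with the smallest p above (top) and of the 10 below (bottom) the ratio of the median gene, blue circles for APOBEC1-only and red triangles for Ribo-STAMP. The upper genes sit between 0 and 4.88 with free APOBEC1 and between 15.8 and 179 with the fusion, while in the lower genes the groups lie close together and overlap for DNAJB1.

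Among 15 covered initiation factors the picture was mixed, with 9 above the median ratio and a list median of 0.53. Subunits of eIF3, the complex that holds the small subunit and the mRNA together during initiation, lay at both ends of the list. EIF3L had 1.02, 1.00 and 2.61 edited reads per 100 covering reads with free APOBEC1 and 69.7, 62.5 and 154 with the fusion, and EIF3E had 0, 0 and 2.99 against 78.4, 86.7 and 226. Both were higher in replicate 3 than in the other libraries of their own group, with coverage for EIF3L of 33 and 48 reads in Ribo-STAMP replicates 1 and 2 and 183 in replicate 3. EIF3M, the lowest of the 15, had 6.25, 4.17 and 2.13 against 43.2, 13.2 and 32.9, which is -1.38 relative to the median gene, and EIF3A lay at -0.24. Also on the low side stood DDX3X, an RNA helicase that unwinds leaders during scanning, with 3.12, 2.78 and 3.75 against 21.5, 19.5 and 25.5. EIF4G2, an eIF4G relative that does not bind the cap-binding protein eIF4E, had 3.06, 3.12 and 3.04 against 28.6, 29.6 and 35.4, a narrow spread in both groups. At an unadjusted p under 0.05 the counts were 2 above and 2 below, beside 8.96% and 5.62% of all genes, and none passed the adjusted test.

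All 8 covered elongation and termination factors lay above the median ratio, with a list median of 0.51. Of the 8, only EEF1A1 passed at an unadjusted p under 0.05, beside 8.96% of all genes on the high side. EEF2, the translocase of elongation, had 3.26, 4.15 and 3.95 edited reads per 100 covering reads with free APOBEC1 and 72.0, 74.1 and 77.8 with the fusion, a ratio of 19.6 close to that of the median gene. Its replicates were close in both groups. EEF1G, a subunit of the exchange factor for EEF1A1, had a ratio of 21.7, and GSPT1, the release factor eRF3a, one of 47.2.

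Of 16 covered aminoacyl-tRNA synthetases, which charge tRNAs with amino acids, 5 were above the median ratio. The list median was -0.30, inside the interquartile range of all 837 genes (-0.74 to 0.71). By the measures described below, it was -0.26 for edited reads and -0.39 for edited positions. For edits per covering read on isoforms edited in every library it was 0.19. EPRS1, the fused glutamyl- and prolyl-tRNA synthetase, had 2.14, 2.54 and 2.24 edited reads per 100 covering reads against 88.2, 88.8 and 84.0. AARS1, the alanyl-tRNA synthetase, had 5.45, 4.6 and 3.57 against 22.8, 22 and 20.3, a ratio of 4.59. These were the single genes of the list past an unadjusted p of 0.05 on each side, beside 8.96% and 5.62% of all genes. Their groups did not overlap after centring. In the integrated stress response list, ASNS, which makes asparagine, had 0 edits in the APOBEC1-only libraries and 35.7, 76.2 and 46.3 per 100 covering reads with the fusion. With 3 edited reads allowed over the 3 free-editor libraries, its ratio was at least 24.0. Those libraries listed no coverage of ASNS, so the bound assumes the coverage of Ribo-STAMP at matched depth. SESN2, a stress-induced inhibitor of mTORC1, had 2.08, 2.63 and 2.72 against 6.98, 11.4 and 6.74, and 3 of the 6 covered members of that list lay above the median ratio.

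Of the nuclear-encoded mitochondrial proteins, several had high ratios. LRPPRC, an RNA-binding protein that stabilises mitochondrial mRNAs, had 1.03, 4.88 and 0 edited reads per 100 covering reads with free APOBEC1 and 159, 156 and 179 with the fusion. HSPD1, the matrix chaperonin Hsp60, had 1.35, 0.824 and 1.01 against 47.8, 46.6 and 55.2. TRAP1, the mitochondrial Hsp90, had 1.10, 0.633 and 1.13 against 64.4, 64.4 and 62.4. The replicates of HSPD1 and TRAP1 were close within each group, and the groups were far apart. HSPA9, the import motor mortalin, had a ratio of 17.7, close to that of the median gene. Of 7 covered genes for mitochondrial chaperones and import, 5 lay above the median ratio, with a list median of 1.32. The list counts the RNA-binding protein LRPPRC among them. LRPPRC, HSPD1 and TRAP1, 3 of the 7, passed at an unadjusted p under 0.05 on the high side, beside 8.96% of all genes. As for the ribosomal proteins, entry required listed edits in all 3 Ribo-STAMP libraries, which favours the high side.

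Genes of the tricarboxylic acid cycle and the ATP synthase had a list median of 0.97, with 5 of 8 above the median ratio. ATP5F1B, the catalytic beta subunit of the synthase, had 0.805, 1.34 and 2.43 edited reads per 100 covering reads against 71.0, 73.7 and 70.4, and the alpha subunit ATP5F1A had 0.524, 2.09 and 2.02 against 50.3, 69.4 and 83.9. Both were among 3 of the 8 that passed at an unadjusted p under 0.05 on the high side, beside 8.96% of all genes. On the low side 0 did, and none passed the adjusted test. ACO1, the iron regulatory protein IRP1, had a ratio of 16.8 and the succinate dehydrogenase subunit SDHA one of 16.4, both near the median gene. No mitochondrially encoded gene met the filter for the 837 (0 of 13), although 7 of the 13 had listed edits in the HEK293T libraries.

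Cytosolic chaperones spread over the whole range, with 11 of 18 above the median ratio and a list median of 0.20. HSPA8, the constitutive Hsp70, had 0, 0.641 and 0 edited reads per 100 covering reads with free APOBEC1 and 36.9, 49.6 and 32.9 with the fusion. HSP90AA1, an Hsp90 isoform, had 1.36, 0.714 and 2.78 against 66.0, 78.1 and 58.8. The Hsp40 co-chaperones stood apart from one another: DNAJA1 had no edits with free APOBEC1 and 27.0, 20 and 13.4 with the fusion, DNAJA2 had 2.01, 3.06 and 1.94 against 8.24, 6.90 and 10.3, and DNAJB1 had 4.71, 0 and 2.00 against 7.14, 4.35 and 2.00. DNAJB1 thus overlapped between the groups, with 5 edited reads in each group over the 3 libraries. The chaperonin subunits CCT3, CCT4 and CCT5 had ratios of 20.1, 20.3 and 19.6, close to the median gene. At an unadjusted p under 0.05, 5 chaperones were above and 2 below, beside 8.96% and 5.62% of all genes.

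Endoplasmic reticulum chaperones and translocon genes had 8 of 14 members above the median ratio and a list median of 0.44. RPN2, a subunit of the oligosaccharyltransferase, had 2.68, 3.08 and 2.47 edited reads per 100 covering reads against 117, 109 and 83.9, and SSR1, of the translocon-associated complex, had 1.92, 0 and 2.73 against 8.11, 5.93 and 5.98. Among 9 covered genes for secreted and plasma membrane proteins, TM9SF2 was the highest with a ratio of 73.1 and the glutamine carrier SLC1A5 the lowest with 0.637, 3.23 and 3.79 against 13.6, 9.35 and 11.5. In each of these lists 1 gene passed at an unadjusted p under 0.05 on each side, of 14 and 9 covered. Of all genes 8.96% did so above and 5.62% below, so no trait of these lists is read from the counts.

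**Figure D3:**
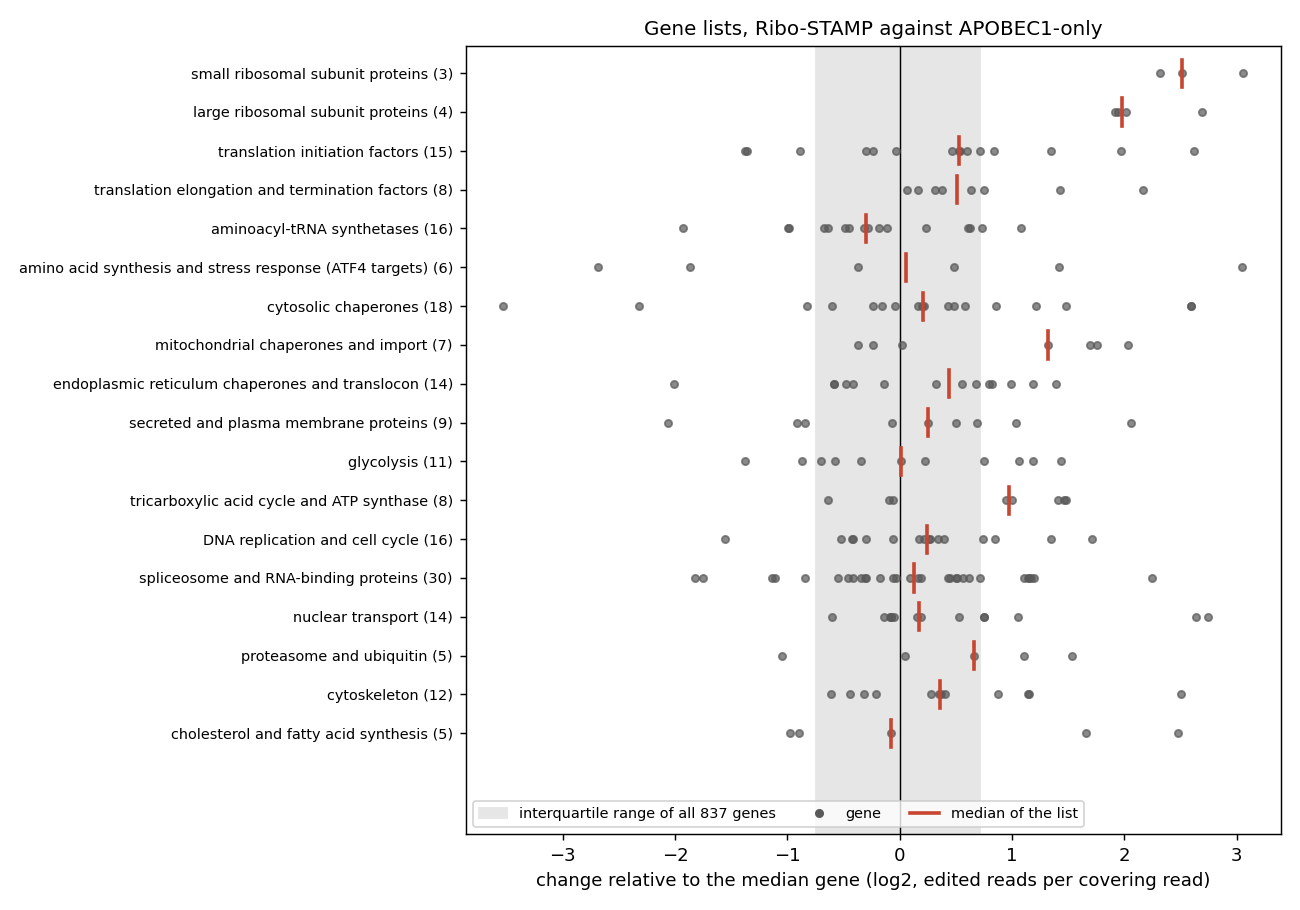
Each point is a covered gene, placed by its Ribo-STAMP over APOBEC1-only ratio of edited reads per covering read relative to the median gene (log2); red bars are list medians, the grey band is the interquartile range of all 837 genes, and the number of genes follows each list name. The ribosomal protein lists lie wholly to the right of the band, and the elongation and termination list lies wholly above 0 (0.06 to 2.16). The lists for mitochondrial chaperones and import and for the tricarboxylic acid cycle and ATP synthase have medians of 1.32 and 0.97. Each list other than the ribosomal protein and elongation lists has members on both sides of 0.

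Glycolytic genes had a list median of 0.01, that of all genes. PGK1, phosphoglycerate kinase, had 1.07, 0.601 and 1.75 edited reads per 100 covering reads against 40.5, 52.2 and 38.4, and ENO1, an enolase, had 2.30, 2.18 and 1.95 against 39.0, 38.4 and 37.3. Cytoskeletal genes had 8 of 12 above the median ratio. ACTB, cytoplasmic beta-actin, had 1.46, 1.28 and 1.42 against 50.5, 68.2 and 45.1, and ACTN1, an actin crosslinker, had 1.52, 0 and 0 against 106, 96.4 and 52.0. UBA1, the main ubiquitin-activating enzyme, had 0.506, 5.71 and 2.35 against 157, 124 and 125, and its ratio of 50.8 was the highest of the 5 covered proteasome and ubiquitin genes. In the lists for cytoskeleton and ubiquitin 3 of 12 and 1 of 5 genes passed at an unadjusted p under 0.05 on the high side and 0 on the low side. Of all genes 8.96% and 5.62% did so, and in lists this small 0 on the low side is not read as a trait.

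Genes of nuclear transport included XPOT, the exporter of tRNA, with 0, 0 and 1.20 edited reads per 100 covering reads against 41.0, 42.4 and 61.9, while the importin beta KPNB1 had a ratio of 15.9. Of the 14 covered, 8 lay above the median ratio. In the list of spliceosome and RNA-binding proteins 16 of 30 lay above it, with HNRNPU (1.03, 0.193 and 2.00 against 36.4, 41.4 and 35.3) on the high side and ILF2 (3.42, 3.70 and 2.06 against 5.41, 20.4 and 18.8) on the low side. Replication and cell cycle genes had 10 of 16 above it. RRM1, the large subunit of ribonucleotide reductase, had 0.864, 1.58 and 0 against 46.1, 54.0 and 59.1, and MCM5, a subunit of the replicative helicase, had 4.65, 6.06 and 2.44 against 32.0, 31.2 and 19.9. Of 5 covered genes of lipid synthesis, ACLY, which supplies cytosolic acetyl-CoA, had 1.79, 0 and 0 against 73.7, 170 and 69.4. Its list median was -0.08, or -0.90 when CYP51A1, with no edit in APOBEC1-only, is set at its bound. Setting such genes at their bounds moved no other list median by more than 0.10.

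Other genes on the high side belonged to no list. YBX1, a major packaging protein of mRNA, had 0.284, 0 and 0 edited reads per 100 covering reads with free APOBEC1 and 30.4, 53.7 and 25.1 with the fusion. YWHAZ, the 14-3-3 zeta protein, had 0, 0.299 and 0 against 25.8, 15.8 and 21.8. NDC1, a nuclear pore membrane protein, had no edit with free APOBEC1 and 47.5, 55.3 and 39.6 with the fusion. With 3 edited reads allowed over the APOBEC1-only group, its ratio was at least 45.3. No coverage of NDC1 was listed in that group, so this bound assumes the coverage of Ribo-STAMP at matched depth. limma called YBX1, YWHAZ and NDC1 higher, along with RPS2, RPS6 and EEF1A1, and of these the negative-binomial model called EEF1A1 alone.

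Among the genes with low ratios, JUN, HEY1 and ZNF281 are described first. JUN, the AP-1 subunit encoded by a gene without introns, had 1.85, 1.12 and 1.22 edited reads per 100 covering reads in the APOBEC1-only libraries and 2.06, 3.37 and 3.84 in the Ribo-STAMP libraries. Its groups did not overlap, its ratio was 2.42, and it lay at -2.85 relative to the median gene (adjusted p = 0.14 in the negative-binomial model and 0.0270 in limma). JUN was well covered, at 97, 89 and 730 reads in Ribo-STAMP, where it had 2, 3 and 28 edited reads. HEY1, a repressor downstream of Notch, had 1.62, 0.963 and 0.806 against 2.82, 4.62 and 3.85. ZNF281, a zinc finger factor, had 3.28, 7.02 and 10.9 against 12.1, 18.0 and 21.4, a ratio of 2.39.

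MSH6, a DNA mismatch repair protein, had 8.0, 4.23 and 6.12 edited reads per 100 covering reads with free APOBEC1 and 22.8, 21.3 and 17.4 with the fusion. The groups did not overlap, and the ratio was 3.47 (adjusted p = 0.106, negative-binomial model). Free APOBEC1 thus left edits on MSH6 in every library. GTF3C2, a subunit of the RNA polymerase III factor TFIIIC, had 5.33, 8.16 and 7.32 against 14.3, 31.9 and 19.2. SEPHS2, a selenoprotein that makes selenophosphate, had 2.79, 2.62 and 0.521 against 2.99, 5.56 and 7.25. The 12 genes that limma called lower were JUN, MSH6, HEY1, ZNF281, GTF3C2, SESN2, NET1, MAPK1IP1L, RBM12, ADAMTS1, WDR82 and GRPEL2.

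Base composition and coverage each varied with the ratio, to a like extent. For 827 of the 837 genes a coding sequence was found by transcript identifier in GENCODE 29. With these genes split into 4 groups of near-equal size, from the lowest GC content of the coding sequence to the highest, the median ratio relative to the median gene was 0.31, 0.01, -0.05 and -0.44 on the log2 scale. From the least to the most covered group of the 837 genes it was -0.25, -0.09, 0.04 and 0.26. Spearman's rho across these genes, which share their libraries, was -0.20 for GC content, 0.20 for mean coverage, -0.03 for coding length and -0.05 for the number of cytidines after A or U per kilobase. These are descriptions across genes, which are not independent replicates.

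Counting edited reads per gene without dividing by coverage gave a second view, in 654 genes with at least 10 edited reads in at least 3 libraries. Of these, 606 had no APOBEC1-only library at that minimum and passed through the Ribo-STAMP libraries alone, so no count over them is read as support for a general rise. On log2(depth-scaled edited reads + 1), centred on the median gene, limma called 1 gene higher (0.153%) and 4 lower (0.612%). LRPPRC had 0.935, 6.0 and 0 depth-scaled edited reads with free APOBEC1 and 349, 222 and 181 with the fusion, and was called higher by 2.79 ± 0.62 (SE) on the log2 scale (adjusted p = 0.0291, limma). This call was lost in 7 of 16 alternatives, with adjusted p up to 0.557: with a pseudocount of 0.5, with limma-voom and when any library but APOBEC1-only replicate 2 was left out. With limma-voom or without Ribo-STAMP replicate 1, 0 of the 5 calls were kept. GTF3C2 and ZNF281 were called lower, at -2.52 ± 0.58 and -2.54 ± 0.59. ECPAS, an adaptor of the proteasome, had 8.42, 12 and 6.10 against 30.4, 45.5 and 12.4 and was called lower at -2.39 ± 0.59 (adjusted p = 0.0499, limma), a call lost when positions listed in more than 3 libraries were left out (adjusted p = 0.638). PHYH, a peroxisomal hydroxylase, had 14.0, 10.0 and 9.77 depth-scaled edited reads in APOBEC1-only and 0.868, 0 and 20 in Ribo-STAMP, so its uncentred values overlapped. Before centring, all of these genes but PHYH had more edited reads with the fusion.

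Counting distinct edited positions in place of reads, limma called LRPPRC higher (0.167%) and ZNF281 lower (0.167%) in 598 genes. LRPPRC had 0.935, 5.00 and 0 depth-scaled positions with free APOBEC1 and 187, 134 and 124 with the fusion. ZNF281 had 3.74, 4.0 and 6.10 against 8.68, 11.6 and 12.4. The replicate number as a block raised these counts to 2 and 5 for positions and to 11 and 10 for edited reads, among which XPOT, RRM1, ALDH18A1, PLS3, CSE1L, CANX, IARS1, EPRS1, RPS2 and EEF1A1 joined LRPPRC on the high side of edited reads.

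The authors' listing allows a stricter measure, in which an isoform must have been edited in every library. The 405 isoforms that met it cover 392 tested genes, and the choice favours mRNAs that free APOBEC1 edits. On the log2 ratio of edited to unedited reads, limma called 73 genes higher (18.6%) and 53 lower (13.5%) than the median gene. RPS2 at 2.97 ± 0.42 (SE), EEF1A1 at 2.82 ± 0.28, TRAP1 at 2.34 ± 0.34 and EIF3L at 2.19 ± 0.46 were among the highest of these calls, as were ATP5F1B, ATP5F1A, HSP90AA1, UBA1 and HSPD1. Among the calls on the low side whose groups did not overlap after centring, the largest were TRMT61B, EPHA7, SLC19A1, TGFBR3, MTOR, AP3M2, HEATR5B, JUN, POLRMT and SETD3. TRMT61B, a mitochondrial tRNA methyltransferase, had 25, 37.5 and 40 edited reads per 100 covering reads with free APOBEC1 and 11.1, 11.1 and 45.5 with the fusion, at a mean coverage of 13.2 reads.

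These calls followed coverage. The genes called higher had a median coverage of 294 reads, those called lower 42.0 and those not called 82.2. With the 392 genes split into 4 groups of 98 by coverage, 1 gene was called higher and 33 lower in the group with the least, and 48 were called higher and 3 lower in the group with the most. A gene with little coverage enters this set only if each APOBEC1-only library happened to hold an edit of it: 255 of the 392 genes had exactly 1 edited read in some APOBEC1-only library. Spearman's rho between coverage and the difference was 0.66 in the 392 genes and 0.20 in the 837 genes. The set of 837 required no edit in APOBEC1-only, but it also had a higher minimum of mean coverage (50 reads against 10) and another measure. Which of these differences goes with the lower rho was not tested.

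**Figure D4:**
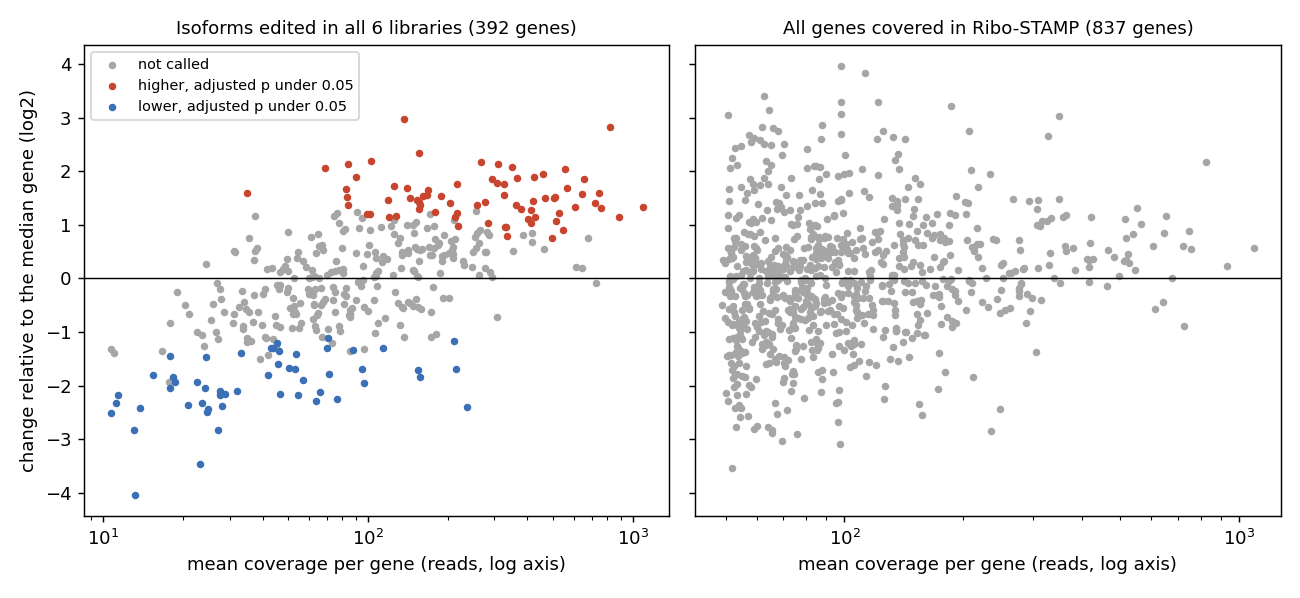
The Ribo-STAMP minus APOBEC1-only difference relative to the median gene (log2) against mean coverage (reads, log axis), for 392 genes whose isoforms were edited in all 6 libraries (left, coloured by limma's call) and for the 837 genes covered in Ribo-STAMP (right). On the left, calls pass from lower to higher as coverage grows (rho 0.66); on the right the difference also grows with coverage, but less (rho 0.20), and the cloud narrows.

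Centring by cyclic loess, which removes a trend with the mean level, left 8 genes higher and 11 lower of the 392. Of the 126 calls, 13 still passed the threshold on the same side. The higher were RPS2, EEF1A1, EIF3L, TRAP1, ATP5F1B, FKBP4, RNPEP and TKT. The lower were JUN, HEY1, MSH6, SESN2, SEPHS2, AMD1, DDX3X, EIF4G2, YTHDF2, SLC16A1 and STARD7. A quasi-binomial model called TRAP1 alone higher and 0 genes lower. Of the 53 genes called lower by limma, 33 did not reach the coverage of the 837-gene comparison, and 72 of the 73 called higher did.

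Coverage itself, the stand-in for mRNA level, was compared in the same 392 genes. limma called 0 genes higher and 0 lower (0%), with 6 and 24 at an unadjusted p under 0.05. Without Ribo-STAMP replicate 3 the counts were 2 and 24, with EEF1A1, EEF1G, SARS1, EIF3L, FKBP4, TRAP1, GAPDH and TUBA1B among the lower. Of these 24 genes, 8 (33.3%) were among the 73 with more edits per covering read (11% of those), beside the 18.6% called in the whole set. Whether the coverage difference plays a part in their edits per read was not tested.

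At the level of single transcripts the results were close to those of genes. Among 620 transcripts limma called 1 with more edited reads (0.161%) and 1 with fewer (0.161%), among 567 transcripts 0 with more and 0 with fewer edited positions (0%), with 19 and 18 at an unadjusted p under 0.05, and among 402 isoforms edited in every library 72 with more (17.9%) and 53 with fewer edits per covering read (13.2%).

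Long reads assign an edit to an isoform, so 2 isoforms of a gene could be compared within the Ribo-STAMP libraries. There were 70 genes with 2 isoforms of at least 20 covering reads on average, and 21 of these pairs had coding sequences of equal length. The isoform with the longer coding sequence, or the longer transcript where these were equal, had the higher level of edited reads per covering read in 34 pairs and the lower in 36, and 24 pairs kept 1 direction in all 3 libraries. limma called 0 pairs in either direction (0%), with 6 and 5 at an unadjusted p under 0.05.

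The pairs nearest to a call were PCNP, UBA1 and HDLBP. PCNP, a nuclear protein rich in PEST sequence, has isoforms with coding sequences of 534 and 171 bases. In the Ribo-STAMP libraries the longer had 29, 31 and 24 edited reads and the shorter only 2, 2 and 5. Per 100 covering reads the levels were 19.9, 20.7 and 26.7 against 4.26, 3.51 and 6.33, a difference of 2.05 ± 0.51 (SE) on the log2 scale (adjusted p = 0.0544, limma). It passed the threshold when positions needed 20 covering reads (adjusted p = 0.0177), when isoforms needed a mean coverage of 50 (0.00266) and when positions listed in more than 3 libraries were left out (0.0337). Without Ribo-STAMP replicate 1 its adjusted p was 0.0223, and without replicate 2 or 3 it did not pass. A longer coding sequence also holds more positions that can be edited, and per base the pair was not tested. UBA1 has 2 isoforms with the same coding length of 3174 bases, at 173, 133 and 139 against 127, 109 and 97.7, a difference of 0.41 ± 0.11 (adjusted p = 0.0544, limma), and it passed under the first 3 of these settings (adjusted p = 0.015, 0.000441 and 0.0239). HDLBP, an RNA-binding protein of the endoplasmic reticulum surface, also has isoforms of equal coding length, at 32.1, 42.3 and 46.4 against 60.6, 97.2 and 86.7, a difference of -0.96 ± 0.28 (adjusted p = 0.0652, limma) that passed with 20 covering reads (adjusted p = 0.0186). GART, an enzyme of purine synthesis, passed at a mean coverage of 50 alone (adjusted p = 0.0375), at a difference of 1.57. With free APOBEC1 the HDLBP isoforms had 10.8, 4.55 and 6.25 against 8.77, 5.68 and 6.25. These levels rest on 2, 1 and 3 edited reads against 5, 5 and 3. Counts this small cannot tell whether the isoforms also differ with the free editor.

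**Figure D5:**
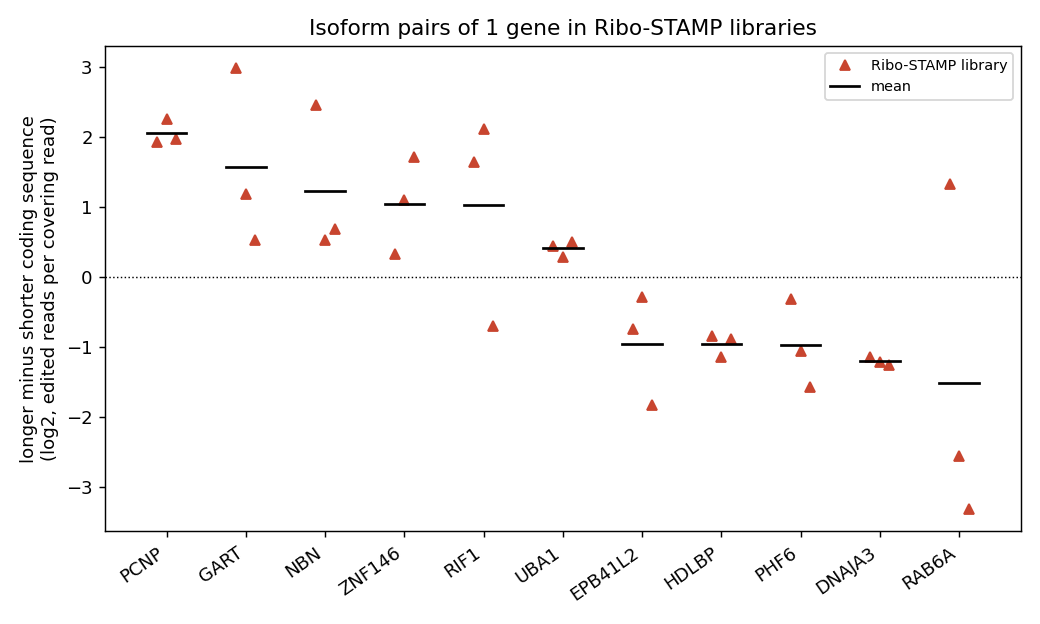
Difference between the 2 isoforms of a gene in edited reads per covering read (log2, longer minus shorter coding sequence) in each of the 3 Ribo-STAMP libraries, with black bars for the mean. PCNP (2.05), UBA1 (0.41), HDLBP (-0.96) and DNAJA3 (-1.20) have close replicates, while RIF1 and RAB6A have libraries on both sides of 0.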

How the data were processed

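The authors deposited 1 file per library, with 2 read counts per coding-sequence position, edited and covering, paired in a cell. The files have no header, so this reading comes from the values. The aligner, edit caller and strand setting were not given in the sources used here. Per the submitters' processing notes the builds include hg19 and hg38, with no role stated, and 2.35 to 4.72% of entries lay in the GRCh38 coding sequence of their gene, so no coordinate or sequence is printed.

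Edited reads were summed per gene, transcript or isoform. Coverage was the sum of each isoform's median coverage, and relative depth the median coverage ratio over the 405 isoforms in all 6 libraries. Because a cell holds 2 numbers, limma 3.58.1 (R 4.3.3) on log2 values with an intensity trend was the planned test, two-sided, with Benjamini-Hochberg adjustment, a threshold of 0.05, a minimum of 10 edited reads or positions in 3 libraries, 1 added to depth-scaled values and 0.5 to edited and unedited reads. Values were centred on the library's median gene or transcript, except coverage, which had TMM scaling, and isoform pairs, which were compared within a library.

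The comparison of 837 genes was added after the data had been seen. Coverage that APOBEC1-only libraries did not list was taken from the other libraries at matched depth. Its model was changed after a first result. A quasi-Poisson model, tried with centring on totals and then on the median gene, called 0 genes in the latter form. On simulated 4-fold changes it recovered 0% of higher and 2% of lower genes, and on 8-fold changes 0% and 69%, with 0 false calls. A negative-binomial quasi-likelihood model with 1 dispersion for all genes (0.0627) replaced it. That model recovered 36% and 47%, then 70% and 88%, with 6 and 5 false calls. The simulated counts were drawn from a negative binomial, so the simulation favoured the replacing model. limma was also run on these genes. The counts from the last 3 fits are reported.

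The members, the 21 gene lists and the tests were chosen with earlier results of these data known. Named genes are RPS2, the 10 largest calls per direction and measure whose groups do not overlap, the 10 smallest p per direction among the 837 genes (a rule set after values were seen), and in each list the called genes and up to 4 with the highest coverage. A pair of genes that met these rules is not reported here. Further list members past an unadjusted p of 0.05 or at a list's ends were chosen after their values were seen.

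Same-numbered libraries correlated in their deviations from the group means by 0.23, 0.44 and 0.58 for coverage, 0.09, 0.12 and 0.33 for edited reads and 0.13, 0.04 and 0.22 for edits per read. The highest correlation with another number was 0.58, 0.58 and -0.39, then 0.18, 0.18 and -0.18, then 0.07, 0.07 and -0.08. For coverage and edited reads, numbers 1 and 2 thus correlated better with another number than with their own, and only number 3 stood out. The labels do not say what a number shares, and this was assessed with calls known. No molecular identifiers are recorded, so floors of 3 counts reflect counting error alone.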

Additional observations from a re-analysis of the deposited data

How the results depend on the processing

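Counts below give higher and lower calls in that order. With the replicate number as a block, the calls were 11 and 10 for edited reads, 2 and 5 for edited positions, 79 and 67 for edits per covering read, 10 and 6 for edited reads of transcripts, 2 and 2 for their positions, and 0 and 0 among the 837 genes. Edited reads of genes gave 652 and 1 without centring, 0 and 1 with a pseudocount of 0.5, 755 and 1218 with no filter, 26 and 44 of 881 genes with a filter on coverage, 0 and 0 with limma-voom, 2 and 2 without positions listed in more than 3 libraries, 0 lower with at least 20 covering reads, 2 lower with positions under 50% edited, and 0 to 1 and 0 to 3 when a library was left out. Edited positions gave 597 and 0 without centring, 704 and 1232 with no filter, 4 and 22 with a filter on coverage, 0 and 0 with a pseudocount of 0.5, limma-voom, 20 covering reads or positions in at most 3 libraries, and 0 to 2 and 0 to 1 with a library left out. Edits per covering read gave 375 and 0 without centring, 8 and 11 with cyclic loess, 42 and 31 at a mean coverage of 50, 1 and 0 with the quasi-binomial model, and 39 (without Ribo-STAMP replicate 1) to 75 and 38 to 48 with a library left out.

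Edited reads of transcripts gave 618 and 1 without centring, 1 and 4 with cyclic loess, 0 lower with 20 covering reads or positions under 50% edited, 0 higher with a pseudocount of 0.5, 867 and 396 with no filter, 31 and 44 with a filter on coverage, 0 and 0 with limma-voom or positions in at most 3 libraries, and 0 to 4 and 0 to 2 with a library left out. Their positions gave 567 higher without centring, 851 and 401 with no filter, 6 and 14 with a filter on coverage, and 0 to 1 each with a library left out. Their edits per covering read gave 386 and 0 without centring, 11 and 12 with cyclic loess, 41 and 30 at a mean coverage of 50, 1 and 0 with the quasi-binomial model, and 40 to 77 and 39 to 51 with a library left out. Coverage gave 0 to 2 and 0 to 24, and isoform pairs 0 to 1 each, with a library left out. Isoform pairs gave 2 and 1 with 20 covering reads, 3 and 0 at a mean coverage of 50, and 2 and 0 with positions in at most 3 libraries. The 837 genes gave 9 and 6 of 331 at a mean coverage of 100, 7 and 12 with limma, 0 and 0 with the quasi-Poisson model, and 0 and 0 with any library left out. The ratio of edited reads was 19.8 with 20 covering reads and 70.2 with at least 2 edited reads at a position, that of positions 14.6 and 60.2.

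Some genes changed sign. Without centring, so that the general difference between the groups is kept, ZNF281 was at 1.34 for edited reads and 1.09 for positions, GTF3C2 at 1.36 and ECPAS at 1.5, and for edits per covering read SLC19A1 was at 0.55, TGFBR3 at 0.55, MTOR at 0.86, AP3M2 at 0.89, HEATR5B at 0.95, JUN at 0.98, POLRMT at 0.99, SETD3 at 1.02, AARS1 at 2.08, SESN2 at 1.42, DNAJA2 at 1.68, SRSF3 at 2.08 and MAP1B at 2.08. With no filter GTF3C2 was at 0.017 and ECPAS at 0.15. With cyclic loess EEF2 was at -0.10, HSPA5 at -0.29, NCL at -0.061 and VCP at -0.38. Apart from the settings that change the centring or the filter by their construction, the cause was not tested. Few free-editor reads limit each gene's ratio, and genes without listed edits in Ribo-STAMP were not compared.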
